A study of Drosophila melanogaster with 3 samples.

Results

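Binding of the CG1602 protein was examined at the 44 Drosophila melanogaster genes whose symbols start with eIF, the genes of eukaryotic translation initiation factors. They were chosen by symbol from 17947 annotated genes, 13968 of them protein-coding, and all 44 code for protein. The data are ChIP-seq of whole embryos of both sexes, aged 0 to 24 h, from a transgenic line in which the C terminus of CG1602 carries green fluorescent protein, precipitated through that tag with an antibody against GFP. There was 1 group of 3 biological replicates and no second condition, so the values describe where the tagged protein was enriched, relative to a control shared by the replicates. The lists for replicates 1, 2 and 3 hold 17580, 27164 and 18386 regions on the dm6 genome, and the list from the pooled replicates holds 16640. The list filtered by irreproducible discovery rate (IDR), which keeps regions that rank alike between replicates, holds 4599, and these are the 4599 strongest pooled regions. Read depth is unknown here, and the region lists hold no information on RNA, so nothing is said of expression. Whole embryos mix all cell types, so strong binding in few cells and weak binding in many cannot be told apart.

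Translation initiation brings the small ribosomal subunit, the initiator tRNA and the messenger RNA together. The trimeric GTPase eIF2 carries the initiator tRNA, and eIF2B is the exchange factor that reloads it with GTP. The large eIF3 complex sits on the small subunit and helps recruit the mRNA. The eIF4F group (the cap-binding protein eIF4E, the scaffold eIF4G and the RNA helicase eIF4A) prepares the capped 5′ end. Among the remaining factors, eIF1 and eIF1A guide start codon selection, eIF5 stimulates GTP hydrolysis by eIF2, eIF5B joins the subunits, and eIF6 keeps the large subunit from joining early.

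The reference sequence around the stronger summit is shown for 7 of the 13 bound members described below, with at least 1 from each group of factors, because these stretches are where enrichment at the gene was highest. Those with the summit in an annotated exon (eIF6, eIF5B, eIF2A and eIF4A) are not shown, and neither are eIF3c and eIF3m, although eIF3c had the strongest peak of the eIF3 group. Each is written 5′ to 3′ along the strand of the gene in dm6, from at most 60 bases before to 60 bases after the summit, cut short at any annotated exon, and the capitals mark the 11 bases centred on the summit.
eIF4EHP (chr3R:24109123-24109243, minus strand): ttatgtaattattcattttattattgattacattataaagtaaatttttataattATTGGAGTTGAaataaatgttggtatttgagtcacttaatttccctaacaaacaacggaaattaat
eIF1 (chr3L:3222966-3223086, plus strand): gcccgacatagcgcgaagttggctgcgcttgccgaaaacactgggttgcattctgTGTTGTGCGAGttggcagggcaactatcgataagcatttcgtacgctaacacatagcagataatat
eIF3h (chr2L:5052431-5052551, minus strand): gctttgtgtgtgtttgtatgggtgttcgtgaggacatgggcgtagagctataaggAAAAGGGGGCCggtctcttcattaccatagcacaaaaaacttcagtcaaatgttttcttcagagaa
eIF2D (chr3R:29151807-29151927, minus strand): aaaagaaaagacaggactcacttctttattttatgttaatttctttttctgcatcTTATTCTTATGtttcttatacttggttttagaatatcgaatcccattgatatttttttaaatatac
eIF4G2 (chr3R:23819272-23819392, minus strand): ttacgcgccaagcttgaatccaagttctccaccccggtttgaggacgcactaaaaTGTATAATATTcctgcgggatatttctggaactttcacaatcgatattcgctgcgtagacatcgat
eIF5 (chrX:15992141-15992261, minus strand): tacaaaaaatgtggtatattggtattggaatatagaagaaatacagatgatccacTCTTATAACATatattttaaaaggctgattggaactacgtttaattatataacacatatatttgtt
eIF3d1 (chr3R:23679947-23680038, plus strand): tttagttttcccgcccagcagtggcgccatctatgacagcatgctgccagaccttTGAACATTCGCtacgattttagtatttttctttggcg
The stretch at eIF4EHP is rich in A and T, with 19.9% G and C within 100 bp of the summit, while those at eIF4G2 (43.3%), eIF3d1 (42.8%), eIF3h (42.3%) and eIF1 (40.8%) have at least 40% (all values count G and C in the 201 bases centred on the summit). At eIF2D and eIF5 they make up 30.8% and 22.9%. The letters TATCGATA in the eIF1 stretch, positions 19 to 26 after the summit, are the DNA replication-related element (DRE), the recognition sequence of the transcription factor DREF.

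A peak was assigned to a gene when its summit lay within 500 bp of a transcription start site (TSS) of that gene. By this rule 13 of the 44 eIF genes (29.5%) held an IDR peak, beside 20.4% of protein-coding genes and 17.1% of all annotated genes. A further 10 (22.7%) held a pooled region only, and 21 (47.7%) held neither. With both lists together the share was 52.3%, beside 40.7% of protein-coding genes and 35.6% of all annotated genes. These shares are given as a description, with no test. Members are counted as they fall: 11 of 44 were bound when a peak was given to no gene but the one whose TSS was closest, beside 14.7% of protein-coding genes. Among the IDR peaks above the median signal of that list 6 members (13.6%) were bound, beside 12.2%, so most bound members lay in the weaker part of the list. Without replicate 2 or without replicate 3, that is among peaks that both remaining replicates also place among their 4599 strongest, 9 members (20.5%) were bound, beside 17.6% and 16.2%.

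**Figure D1:**
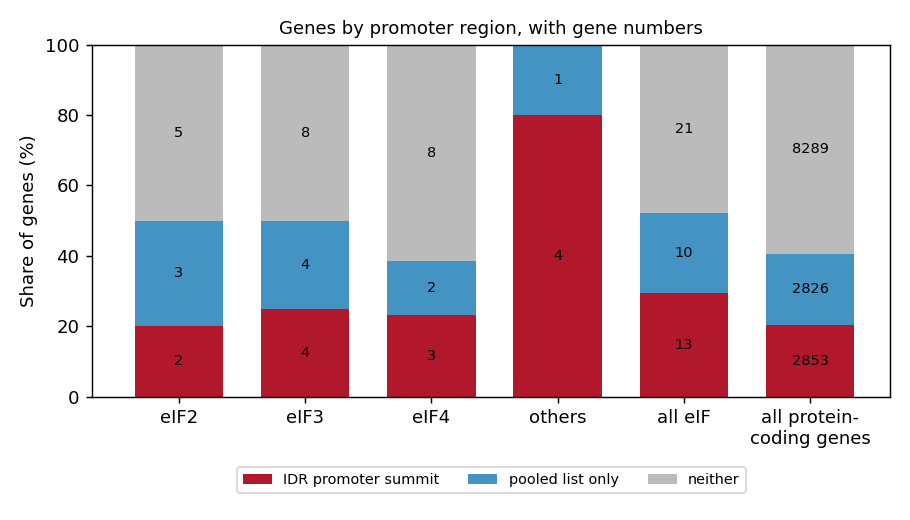
Share of genes (y axis, %) with an IDR promoter summit, with a pooled promoter region only, or with neither, for the eIF2, eIF3 and eIF4 groups, the other factors, all 44 eIF genes and all 13968 protein-coding genes; numbers in the bars count genes. Of the other factors 4 of 5 hold an IDR summit, while 2 of 10, 4 of 16 and 3 of 13 do in the eIF2, eIF3 and eIF4 groups.

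In the eIF2 group 2 of 10 promoters held an IDR peak, in the eIF3 group 4 of 16 and in the eIF4 group 3 of 13, shares close to one another and to the 20.4% of protein-coding genes. Among eIF1, eIF1A, eIF5, eIF5B and eIF6 it was 4 of 5, a group too small to read a difference from, and none was tested. The signals of the 13 peaks ran from 110.5 to 1371.8 on the authors' scale, against a lowest value of 108.158 in the IDR list. The 2 strongest, at eIF6 and eIF4EHP, stood apart from the other 11, of which the highest was 491.2.

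**Figure D2:**
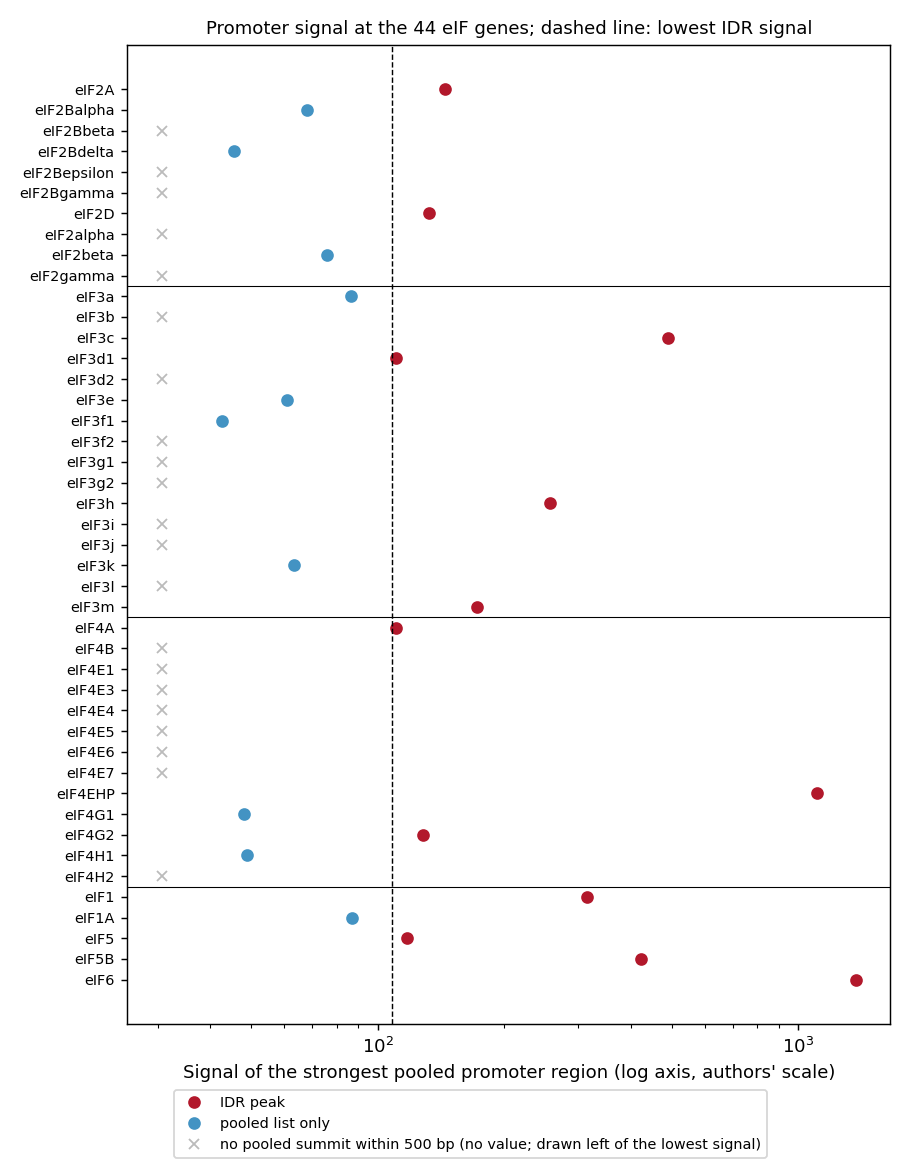
Signal of the strongest pooled promoter region (x axis, log scale, authors' own units) at each of the 44 eIF genes, grouped by factor; the dashed line is the lowest signal of the IDR list, 108.158. Only eIF6 (1371.8) and eIF4EHP (1110.4) lie above 1000, and crosses mark the 21 genes with no pooled summit within 500 bp.

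The strongest peak of the set belonged to eIF6, the factor that blocks subunit joining and also acts in maturation of the large ribosomal subunit. The peak (chr2R:23850239-23850566, signal 1371.8) ranked 30 in the pooled list and 27, 51 and 28 in replicates 1, 2 and 3. It was thus near the top of every list. Its summit lay 112 bp upstream of the eIF6 TSS (FBgn0034915, minus strand) and within an exon of a non-coding antisense RNA gene, asRNA:CR45928, 83 bp downstream of the TSS of that gene. In the replicates the summit lay 128, 92 and 109 bp upstream of the eIF6 TSS. Because asRNA:CR45928 starts closer, eIF6 was not counted when a peak went only to the nearest TSS.

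Of the other factors, eIF5B, the GTPase of subunit joining, came next. Its peak (chr3L:3460549-3460964, signal 422.7) ranked 556 in the pooled list and 494, 728 and 526 in replicates 1, 2 and 3. The summit lay 154 bp upstream of one eIF5B TSS, in the 5′ UTR of a longer eIF5B transcript, and no other gene started within 500 bp. At eIF1, 2 IDR summits lay in the intergenic stretch shared with the ribosomal protein gene RpL28, which is transcribed in the opposite direction. The stronger (signal 314.3, rank 999) lay 315 bp upstream of eIF1 and 66 bp upstream of RpL28, and it was also within 500 bp of snoRNA:Or-CD11a. The weaker, of rank 3048, lay 89 bp upstream of eIF1 and 292 bp upstream of RpL28. The strongest region overlapped in replicates 1, 2 and 3 was the same for both, of rank 1382, 1391 and 725. Its summit lay 283, 269 and 315 bp upstream of eIF1, near the stronger pooled summit. Only the strongest match was taken, so a weaker replicate region at the second summit would not show.

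The peak of eIF5 was close to the IDR limit (chrX:15991993-15992408, signal 117.5, rank 4153). It ranked 5309, 5578 and 3767 in replicates 1, 2 and 3, so only replicate 3 placed it among its 4599 strongest. Its summit lay 227 bp upstream of eIF5 and 267 bp upstream of the homeobox gene exd, which runs the other way, and CG46312 starts at the same distance as eIF5. The fifth factor, eIF1A, held a pooled region only (signal 86.8, rank 5937) in the interval to Vps39, 71 bp upstream of its TSS. The strongest regions that it overlapped in replicates 1, 2 and 3 ranked 6835, 6436 and 5921. Their summits lay 64, 78 and 247 bp upstream of eIF1A, so the strongest match in replicate 3 stood away from the pooled position.

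Within the eIF4 group the peak of eIF4EHP was far stronger than any other. This gene encodes a cap-binding relative of eIF4E that represses translation of chosen mRNAs in the fly embryo. Its peak (chr3R:24109003-24109391, signal 1110.4) ranked 56 in the pooled list and 77, 47 and 54 in replicates 1, 2 and 3. The summit, in the A and T rich stretch shown above, lay 223 bp upstream of eIF4EHP and 153 bp upstream of the divergent gene CG18428. In the replicates it lay 235, 206 and 237 bp upstream of eIF4EHP. As at eIF6, the neighbour is nearer, and eIF4EHP was not counted when a peak went only to the nearest TSS.

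The 6 genes named eIF4E1 and eIF4E3 to eIF4E7 encode cap-binding proteins of the eIF4E type. None held a pooled summit within 500 bp of a TSS, beside 40.7% of protein-coding genes that did. The nearest pooled summit to eIF4E1, the main embryonic form, was 2419 bp downstream of a TSS. At eIF4E4 it was 2046 bp and at eIF4E7 4370 bp downstream, at eIF4E6 5711 bp upstream, and at eIF4E5 and eIF4E3 9091 and 20450 bp downstream. Within the cap-binding family, eIF4EHP thus held a peak of rank 56 and the 6 others no pooled promoter region. Weak regions did occur in replicate lists, at the promoter of eIF4E3 in replicate 3, of eIF4E1 in replicates 2 and 3, and of eIF4E6 in replicates 1 and 2. The contrast was singled out after the values were seen, most protein-coding genes hold no pooled region either, and nothing is read from it.

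The scaffold genes were both in the lists, at different levels. At eIF4G2, which is required for male meiosis, the IDR peak (chr3R:23819124-23819539, signal 128.3, rank 3714) ranked 4108, 3709 and 3501 in replicates 1, 2 and 3. All 3 replicates placed it among their 4599 strongest. Its summit lay 95 bp upstream of eIF4G2, in an intron of CG34355, and a TSS of CG33111 on the same strand lay at the same distance. At eIF4G1, the general scaffold, on chromosome 4, only a pooled region was found (signal 48.2, rank 12539), 60 bp downstream of the TSS in the 5′ UTR. It overlapped a region in replicates 2 and 3 (ranks 11311 and 10541) and none in replicate 1. The summit lay 83 bp downstream of the TSS in replicate 2 and 249 bp upstream in replicate 3.

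The helicase gene eIF4A held 1 IDR peak and 2 weaker pooled regions within 500 bp of its 3 TSS. The IDR peak (chr2L:5982305-5982720, signal 110.5, rank 4486) lay 81 bp upstream of a downstream TSS, within the 5′ UTR of a longer eIF4A transcript. It ranked 6161, 3571 and 4203 in replicates 1, 2 and 3. With only the 5′ end of each gene taken as its TSS, eIF4A was no longer counted. Regions at the first TSS ranked 11050 and 12693 in the pooled list. Of the RNA-binding cofactors of the helicase, eIF4H1 held a pooled region (signal 48.8, rank 12320) found in replicate 2 alone (rank 11818), and eIF4H2 and eIF4B held none. The gene eIF4B lies near the end of arm 3L, at bases 27842669 to 27858271 of 28110227. The IDR peak nearest to it lay 1845643 bp away, and the nearest pooled summit 3016 bp upstream.

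In the eIF3 group the strongest peak was at eIF3c, a core subunit (chr2R:17665439-17665854, signal 491.2, rank 419). It ranked 298, 938 and 427 in replicates 1, 2 and 3, and no TSS of another gene lay within 500 bp of the summit, 31 bp upstream of eIF3c. Its summit was 25, 97 and 18 bp upstream in the replicates, so replicate 2 stood 66 bp from the pooled position. The peak of eIF3m (chr2R:14164668-14165083, signal 172.7, rank 2539) ranked 2541, 3141 and 2530, with its summit 51 bp upstream of eIF3m and 175 bp upstream of the divergent gene CG8323.

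The subunit gene eIF3h was the exception in position. Its stronger summit (chr2L:5052283-5052698, signal 256.9, rank 1407) lay 289 bp downstream of a TSS, in an eIF3h intron, and was placed 288, 276 and 312 bp downstream in replicates 1, 2 and 3. The ranks there were 1271, 1473 and 1875. A second IDR summit (signal 141.3, rank 3315) lay 33 bp downstream, in the 5′ UTR. The strongest region that its peak overlapped in each replicate was the same as for the stronger peak, with the replicate summits near the stronger. The 2 pooled peaks overlap and only the strongest match was taken, so a weaker replicate region at the second summit would not show. Both pooled summits lay within 500 bp of the divergent gene senju, the second 96 bp upstream of it. The peak of eIF3d1, which encodes a subunit whose human counterpart can bind the mRNA cap, varied most in rank between replicates (chr3R:23679799-23680214, signal 110.5, rank 4485). It ranked 10732, 2494 and 4664, and only replicate 2 placed it among its 4599 strongest.

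A further 4 eIF3 genes held pooled regions below the IDR limit. They were eIF3a (signal 86.5, rank 5969), eIF3k (63.2, rank 8596), eIF3e (60.8, rank 9013) and eIF3f1 (42.7, rank 15435). The region at eIF3a ranked 12096, 5313 and 4845 in replicates 1, 2 and 3, and its summit fell in a coding exon of the neighbouring gene CG1074, 174 bp upstream of eIF3a. The region at eIF3f1 was absent from replicate 1. No pooled summit lay within 500 bp of eIF3b, eIF3g1, eIF3i, eIF3j and eIF3l. The same held for eIF3d2, eIF3f2 and eIF3g2, the second copies of eIF3 subunit genes.

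In the eIF2 group the IDR peaks were at eIF2A and eIF2D, which share the name but are not subunits of the eIF2 GTPase. None of the 8 genes for the eIF2 and eIF2B subunits held one, beside 20.4% of protein-coding genes. With 8 genes and a split made after the values were seen, nothing is read from this count. The products of eIF2A and eIF2D have mammalian counterparts that can deliver tRNA to the ribosome outside the main pathway. The eIF2A peak (chr3L:21824682-21825097, signal 145.0, rank 3210) ranked 5398, 3581 and 2487 in replicates 1, 2 and 3, outside the 4599 strongest in replicate 1. Its summit lay 75 bp upstream of a TSS, in the 5′ UTR of a longer eIF2A transcript. The eIF2D peak (chr3R:29151659-29152074, signal 132.5, rank 3596) ranked 3293, 3766 and 4485, within the 4599 strongest everywhere. Its summit lay 73 bp upstream, and in replicates 1, 2 and 3 it lay 137, 78 and 144 bp upstream.

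Of the eIF2 subunit genes, eIF2beta held 2 pooled regions, and eIF2alpha and eIF2gamma held none. The stronger at eIF2beta (signal 75.7, rank 6963) lay 311 bp upstream and was absent from replicate 1. Its summit lay 79 and 310 bp upstream in replicates 2 and 3. The weaker (signal 42.5, rank 15576) lay 261 bp downstream, in an eIF2beta intron. Of the eIF2B genes, eIF2Balpha (signal 67.8, rank 7899, 41 bp upstream) and eIF2Bdelta (45.6, rank 13691, 50 bp upstream) held pooled regions, the second found in replicate 3 alone (rank 9009). The 3 others, eIF2Bbeta, eIF2Bgamma and eIF2Bepsilon, held none. One of the strongest peaks of the genome lay just beyond the 500 bp window of eIF2Bbeta (chrX:2703696-2704086, signal 2359, pooled rank 6). Its summit was 676 bp upstream of eIF2Bbeta and within 500 bp of the divergent transporter gene Ugalt, and it ranked 7, 7 and 3 in replicates 1, 2 and 3. With a window of 1000 bp eIF2Bbeta was the 1 gene added. The bound member with the summit farthest from its TSS was eIF1, at 315 bp, so no member lay between that distance and the window edge.

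**Figure D3:**
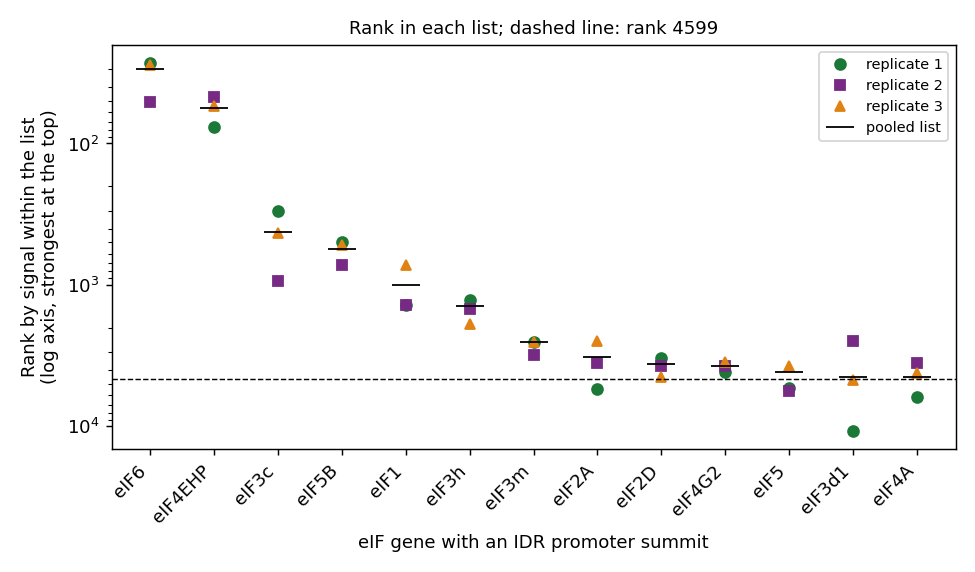
Rank by signal (y axis, log scale, strongest at the top) of the strongest promoter peak of the 13 bound eIF genes in the lists of replicates 1, 2 and 3 and in the pooled list; the dashed line is rank 4599, the length of the IDR list. At eIF6 and eIF4EHP all ranks are 77 or better, while at eIF3d1 they run from 2494 to 10732.

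Across the bound members the replicates placed the peaks at similar median ranks, 2541, 2494 and 2487 in replicates 1, 2 and 3, beside 1879, 1960.5 and 1746 for all 2853 bound protein-coding genes. The lists differ in length, so equal ranks do not mean equal enrichment. All 3 replicates held 9 of the 13 peaks (69.2%) among their 4599 strongest regions, beside 76.9% for all bound protein-coding genes. For 2 members 2 replicates did (eIF2A and eIF4A, both missed by replicate 1), and for 2 members 1 replicate did (eIF5 and eIF3d1). All 13 overlapped a region of every whole replicate list. The IDR list was made from these lists and they share a control, so this is no independent check. Of the 10 genes with a pooled region only, 5 had an overlapping region in all 3 replicates, 3 in 2 and 2 in 1. An overlap of 1 bp was enough, and some summits differed in position. In replicate 1 the summit lay 516 bp upstream of eIF3e and 305 bp upstream of eIF3k, against pooled summits 199 and 64 bp upstream.

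At 12 of the 13 bound eIF genes (92.3%) the summit was on the upstream side of the nearest TSS of the gene, beside 90.5% of bound protein-coding genes. At eIF2A, eIF4A and eIF5B that summit was still inside the gene, in the 5′ UTR of a longer transcript. The median position was 81 bp upstream, with quartiles 154 and 51 bp upstream, beside 143 bp upstream and quartiles of 236 and 81 for all bound protein-coding genes. In the replicates the median was 85, 92 and 99 bp upstream. The largest distance between a replicate summit and the pooled summit was 71 bp, at eIF2D, and at 9 of the 13 genes it was 34 bp or less.

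**Figure D4:**
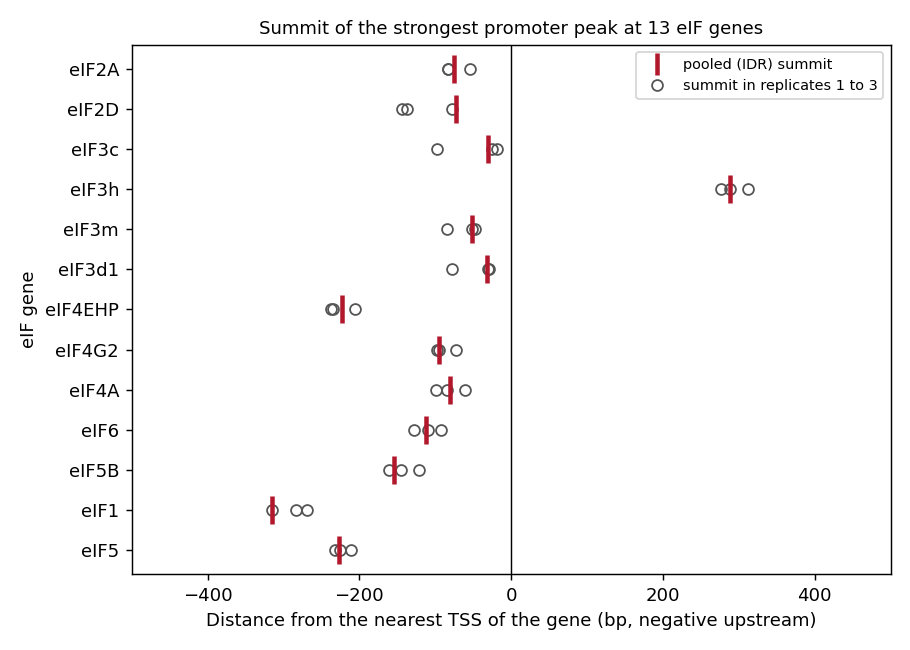
Distance of the summit from the nearest TSS of the gene (x axis, bp, negative upstream) for the strongest peak of the 13 bound eIF genes; red bars are pooled summits and circles the summits in replicates 1, 2 and 3. At 12 genes the pooled summit lies between 315 and 31 bp upstream, and at eIF3h it lies 289 bp downstream.

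Shared promoters were no more frequent among the bound members than among bound protein-coding genes. At 7 of the 13 (53.8%) an IDR summit was also within 500 bp of a TSS of another gene, beside 64.7% of bound protein-coding genes. A TSS of another gene on the opposite strand within 1000 bp upstream was annotated for 9 of 13 eIF genes with an IDR summit (69.2%), 5 of 10 with a pooled region only and 8 of 21 with neither (38.1%). For all protein-coding genes the shares were 69.5%, 50.8% and, with neither, 25.0% (2071 of 8289 genes). The difference from the members with neither was not tested. A single annotated TSS was held by 29 of 44 members (65.9%) and by 73.5% of protein-coding genes, and more TSS give more chances to hold a summit.

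Summits of bound members had a higher median G and C content than bound promoters as a whole, which was not tested. Over the 15 IDR peaks of members, which include 2 each at eIF1 and eIF3h, the median was 40.8% within 100 bp of the summit, beside 33.3% for the 2278 IDR promoter summits. The values ran from 19.9% at eIF4EHP and 22.9% at eIF5 to 55.7% at eIF4A. Of 4 motifs searched on both strands in this window, the DRE (TATCGATA) was found at 2 of 15 peaks, those of eIF1 and eIF2A, beside 6.19% of IDR promoter summits. The TATA letters TATAAA were found at 4 (eIF1, eIF3m, eIF4EHP and eIF6), beside 40.7%, and GAGAG at 2 (eIF3c and eIF4A), beside 18.4%. The E-box CACGTG was found at 0 of 15, beside 2.24%. No motif contains another, and at eIF3m the TATAAA matches of the opposite strands overlap. A match marks letters only.

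Other genes of the translation pathway were counted in the same way, from a list written with earlier results of these data known. Of 11 elongation and termination genes, 7 held an IDR promoter peak, 3 a pooled region only and 1, eEFSec, neither, beside 20.4% of protein-coding genes with an IDR promoter peak and 40.7% with any pooled region. Those with an IDR peak were the termination factors eRF3 (signal 297.4, rank 1080) and eRF1 (206.9, rank 1978), the elongation factors eEF1gamma (287.1, rank 1158), eEF1alpha1 (219.4, rank 1813) and eEF2 (136.4, rank 3476), the ribosome recycling gene pix (194.8, rank 2156), and eEF5 (132.1, rank 3608), formerly named eIF5A. The ranks of eRF3 in replicates 1, 2 and 3 were 944, 1196 and 1051, and those of eEF1gamma 1562, 1210 and 919. Of 17 regulators of initiation, 6 held an IDR peak, beside the same 20.4%, and no test was made of either list. These were the kinase gene mTor (signal 354.5, rank 796), the poly(A)-binding protein gene pAbp (190.1, rank 2242), mxt (168.1, rank 2642), the eIF2 kinase gene Gcn2 (142.8, rank 3266), NAT1 (124.3, rank 3858) and Thor (115.1, rank 4256), which encodes the eIF4E-binding repressor. A further 5 held a pooled region only and 6 neither, among them the eIF2 kinase gene PEK. The summit at pAbp lay 476 bp downstream of its TSS, near the edge of the window.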

How the data were processed

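Peak lists of 3 biological replicates of GFP ChIP-seq on embryos expressing tagged CG1602 were analysed on dm6. Per the file headers, the authors derived every replicate list from 1 alignment and a shared control, the pooled list from all 3 alignments, and the IDR list from these lists. No source used here gives the aligner, the peak caller or the threshold of the IDR step. The deposited signal of each region, on a scale that is not given, served to rank regions within a list. The deposited −log10 q-value is tied among strong peaks, at up to 3.84 in the IDR list, and did not enter the ranks. The dm3 lists were not used here.

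Genes came from Ensembl release 115 on the main chromosome arms, without pseudogenes and transposable elements, and sequence from the RefSeq copy of the same assembly. All regions lay within its arm lengths. A replicate region matched a pooled region by at least 1 shared bp, and the strongest match was taken. A weaker replicate region nearer to the pooled summit would thus not show in the replicate ranks and positions. The summit is the region start plus the deposited offset. Every member with an IDR or pooled promoter region was named with values. The members and lists were chosen with earlier results of these data known, so no enrichment test was made, and with 1 group no test between conditions exists. Replicates are separate biological samples per the labels. Gene assignment was tested on simulated data. Of the names in the pathway list, 1 was found through an older symbol (Tor, now mTor). Alternatives covered the window, the TSS used, nearest TSS only, peak strength, whole peaks, motif width and leaving out each replicate. Python 3.11.15, numpy 2.4.6, pandas 2.3.3 and matplotlib 3.10.9 were used.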

Additional observations from a re-analysis of the deposited data

How the results depend on the processing

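Of 39 alternatives, 32 left a value within 1.5 times its count or within the spread between replicates. The count of 13 bound eIF genes fell to 6 among the IDR peaks above the median signal, which by construction keeps fewer peaks. Elsewhere it was 9 to 14, and 9 to 11 with each replicate left out (11 without replicate 1, 9 without replicate 2 and 9 without replicate 3). Leaving out a replicate kept the IDR list of all 3. It only asked that both other replicates place the peak among their 4599 strongest, so by construction the count could only fall. The genes lost were eIF2A and eIF4A without replicate 2 or 3, and eIF3d1 and eIF5 in all 3 cases. The last 2 had to be lost, since only 1 replicate placed each among its 4599 strongest. The count with pooled regions was 18 to 24 against 23. The median summit position of -81 bp moved to -62 bp with gene starts only. With each replicate left out it ranged from -95 to -81 bp, beyond the SD of 7.0 bp over replicates. That range comes from the same pooled summits over the fewer genes left, so it shows which genes remained and not a moved summit. The SD is that of the replicates' own median positions at all 13 genes, a different measure. The median over members of the mean rank in the replicates, 2737.3, ranged from 2535.5 to 2841 with each replicate left out; the cause was not tested. Genes sharing a promoter peak numbered 6 to 10 against 7, and peaks with any motif 6 to 9 against 8. No paired analysis was possible because there is 1 group. Depth is unknown, so a member with no region may be bound below what these lists can show.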

Other observations

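Of the 21 eIF genes with no pooled summit within 500 bp of a TSS, 11 had no region there in any replicate list, 7 had one in 1 list and 3 in 2 lists. Those with 2 were eIF2gamma (rank 7058 in replicate 1 and 25026 in replicate 2), eIF4E1 (15358 in replicate 2 and 10020 in replicate 3) and eIF4E6 (16355 in replicate 1 and 10487 in replicate 2). These are weak regions of lists that hold background. The distance to the nearest pooled summit had a median of 3016 bp over the 21 genes and ran from 676 to 20798 bp. Besides eIF2Bbeta, an IDR summit lay within 2000 bp of eIF2Bgamma, 1298 bp upstream at CG8187 (signal 167.7, rank 2655), and of eIF3g1, 1342 bp downstream at Smyd3 (signal 263.9, rank 1346).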
